A study of Mus musculus with 4 samples.

Results

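The ERBB receptors and their ligands were followed in mouse hearts at postnatal day 7 (P7). The set held 9 genes of the 24454 in the count table: the receptors *Erbb2*, *Erbb3*, *Erbb4* and *Egfr*, the ligands *Nrg1*, *Nrg2*, *Nrg4* and *Hbegf*, and the receptor inhibitor *Errfi1*. They were found by matching the Entrez Gene identifiers of the table to gene symbols, and each of the 9 was present. The study asked how *miR-128* bears on the division of cardiomyocytes (CMs) after birth, and these libraries were made to look for cell cycle genes that it may target. RNA-seq compared 2 libraries from Ctrl hearts (WH7 and WH8) with 2 from *miR-128*OE hearts (WH9 and WH10), all taken at P7, with no other treatment named in the labels. By the study's methods, Ctrl mice carried the *miR-128* TetRE responder alone, and *miR-128*OE mice carried it together with α-MHC-tTA, a Tet-off activator whose promoter is active in CMs. The transgene is therefore driven in CMs, while the RNA came from heart tissue with all its cell types.

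ERBB receptors are tyrosine kinases that act in pairs. ERBB2 binds no known ligand and signals as the partner of a receptor that does, ERBB3 binds neuregulins but has little kinase activity of its own, and ERBB4 and EGFR have both functions. In the heart, neuregulin-1 released by endothelial and endocardial cells reaches ERBB4 and ERBB2 on CMs, a route needed for trabeculation and known for its effect on CM growth and division around birth.

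Because the overexpressed molecule is a miRNA, its sequence and its possible pairing sites in the members are shown first. Mature *miR-128-3p*, as given by RefSeq for GRCm38.p6, is encoded at chr1:128202404-128202424 (plus strand, *Mir128-1*) and chr9:112118644-112118664 (minus strand, *Mir128-2*), and the capitals mark the seed, bases 2 to 8.
miR-128-3p: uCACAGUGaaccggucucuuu
Matches to this seed were searched on the transcript strand, in each gene's longest annotated 3′UTR. The letters searched were CACTGTG, which pairs with bases 2 to 8, and ACTGTGA, which pairs with bases 2 to 7 and ends in A, and a site with both reads CACTGTGA. The sites found outside *Hbegf* are printed 5′ to 3′ on the transcript strand with the match in capitals, on GRCm38, and all lie in the last exon, within the 3′UTR as annotated by GENCODE M21.
*Erbb3*, chr10:128568864-128568871, minus strand: aactgaacatgCACTGTGAgccaggcatcc
*Erbb4*, chr1:68034360-68034366, minus strand: attaattctatCACTGTGggcttctctgt
*Egfr*, chr11:16912078-16912084, plus strand: ttgatcttcgaACTGTGAagattccacaa
*Egfr*, chr11:16913990-16913996, plus strand: cagtgtgtcctCACTGTGtctttgcaggg
*Egfr*, chr11:16915431-16915437, plus strand: aagtcctcagaCACTGTGtgttatctaag
*Nrg1*, chr8:31817396-31817402, minus strand: gagaaagtaatACTGTGAtttttaaaaca
*Errfi1*, chr4:150868782-150868788, plus strand: actgatctccgCACTGTGtgtacagtatt

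A match was present in 6 of the 9 members, namely *Erbb3*, *Erbb4*, *Egfr*, *Nrg1*, *Hbegf* and *Errfi1*. *Erbb3* carried the only 8-base match, and *Egfr* the only run of 3 matches, of which 1 lies within the shorter RefSeq gene. The 3′UTRs of *Erbb2* (1048 bases), *Nrg2* (262 bases) and *Nrg4* (1394 bases) held 0. Of 13463 tested genes with a 3′UTR, 31.0% held a match. The 3′UTRs of *Erbb4* (7855 bases), *Egfr* (6303 bases) and *Nrg1* (3477 bases) were long, the median over tested genes being 1199 bases. A match is a description of letters, and no binding was measured here.

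Library totals ran from 8096870 to 14359838 counts, so that 3 counts, taken as the detection floor, were 0.209 to 0.371 CPM (counts relative to the library total, on the usual CPM scale). Mature miRNAs are too short to be read by libraries of this kind. Of the precursor genes, *Mir128-2* had 0 counts in both Ctrl libraries and 2 and 10 in WH9 and WH10. *Mir128-1* had 0 in all 4. The female transcript *Xist* had 11339 to 14543 counts in Ctrl and 94 to 132 in *miR-128*OE, while Y-linked *Ddx3y* had 7 to 13 and 1442 to 1768. Condition and sex cannot be told apart in any value below. The labels do not say that the libraries came from separate animals, so p-values measure the spread between these samples. In bulk tissue, fewer cells of a type and less RNA per cell cannot be told apart either.

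All 9 members had enough counts to be tested, and 2 passed the threshold, an adjusted p of 0.05 in the quasi-likelihood test of edgeR, adjusted by Benjamini-Hochberg over 14266 genes. *Erbb2* fell and *Errfi1* rose. Across all genes tested, 31.5% passed (16.5% higher and 15.0% lower), so the share of 22.2% among the members lies below that of all genes. The libraries of the groups did not overlap for 5 members (55.6%), with *Errfi1*, *Erbb4* and *Nrg4* higher and *Erbb2* and *Nrg2* lower in *miR-128*OE, against 68.1% of all genes tested (33.7% higher and 34.4% lower). The median log2 fold change was 0.04 over the members and −0.01 over all genes.

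**Figure D1:**
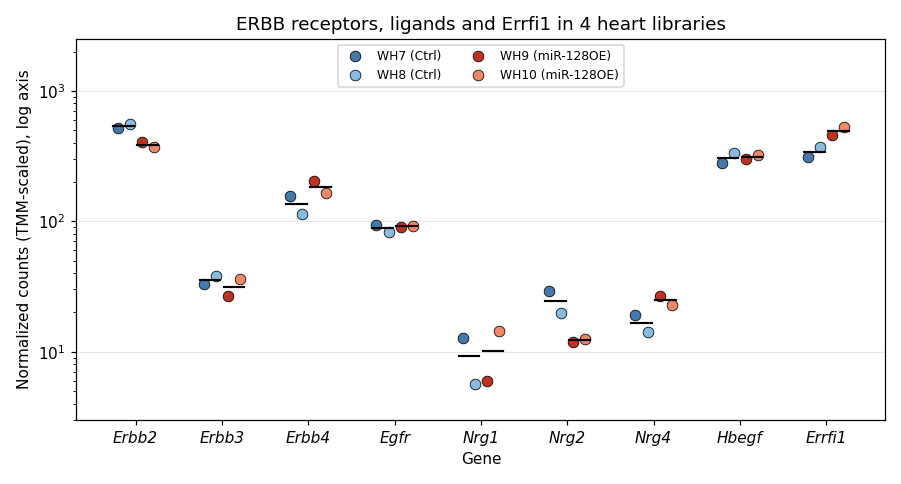
Normalized counts of the 9 members on a log axis, with 1 point per library (blue, Ctrl libraries WH7 and WH8; red, miR-128OE libraries WH9 and WH10) and a bar at each group mean. The Ctrl points of Erbb2 (520.3 and 557) lie above its miR-128OE points (402 and 371), Errfi1 shows the opposite order, and Nrg1 lies lowest, between 5.65 and 14.3.

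Of the receptors, *Erbb2* (Entrez Gene 13866, chromosome 11, 98412484 to 98437716, plus strand, with gene spans here and below from RefSeq on GRCm38) had the highest level per length. Its normalized counts, scaled for library size by TMM, were 520.3 in WH7 and 557 in WH8, and 402 in WH9 and 371 in WH10. Both *miR-128*OE libraries were thus below both Ctrl libraries, with replicates closer to each other than to the other group. Means were 539 ± 25.8 and 386 ± 22.0 (SD, n = 2 each), or 0.718-fold, a log2 fold change of −0.48 with a 95% interval from −0.71 to −0.25 (adjusted p = 0.00757, edgeR). The call was kept in 10 of 10 other settings of the test, scaling and filter, with log2 fold changes from −0.58 to −0.43. It was lost when 1 *miR-128*OE library was left out, with an adjusted p of 0.0551 in edgeR without WH9 (log2 fold change −0.52) and 0.0985 without WH10 (−0.40).

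*Erbb4* (Entrez Gene 13869, chromosome 1, 68031884 to 69108576, minus strand), the neuregulin receptor of CMs, had 157 and 114 normalized counts in WH7 and WH8 and 202 and 164 in WH9 and WH10. The *miR-128*OE libraries were the higher pair, but WH10 lay only just above WH7. Its log2 fold change of 0.40 (95% interval −0.02 to 0.83) missed the threshold (adjusted p = 0.136, edgeR), and the interval holds both no difference and a gain as large as that of *Errfi1*. Here 1 Ctrl library decided the call: without WH7 the log2 fold change was 0.67 with an adjusted p of 0.0221 in edgeR, and without WH8 it was 0.22.

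*Erbb3* (Entrez Gene 13867, chromosome 10, 128567523 to 128589635, minus strand), which in the heart is best known from endocardial cushions and nerve, was sparse. Its raw counts were 36 and 27 in Ctrl against 27 and 43 in *miR-128*OE, and its normalized counts were 32.9 and 38.2 against 26.7 and 36.2. The groups overlapped. The log2 fold change was −0.15 with a wide 95% interval from −0.86 to 0.55 (adjusted p = 0.745, edgeR), and it turned to 0.05 without WH9, the lowest library.

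*Egfr* (Entrez Gene 13649, chromosome 11, 16752203 to 16913907 in RefSeq, plus strand) is the receptor of HB-EGF and EGF. Its last exon runs on to 16918158 in GENCODE M21, so the seed matches at 16913990 and 16915431 lie beyond the RefSeq end and within the GENCODE gene. It had 94.2 and 83.4 normalized counts in Ctrl against 91.1 and 92.5 in *miR-128*OE. These values overlapped and lay close together. The log2 fold change of 0.04 (95% interval −0.40 to 0.48, adjusted p = 0.897, edgeR) changed sign with total-count scaling (−0.06), with upper-quartile scaling and without WH8 (−0.03).

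Since each receptor was read from the same libraries, their makeup was compared per length of exon, which needs no scaling between libraries. *Erbb2* made up 79.0% and 82.3% of the level of the 4 receptors in WH7 and WH8, and 72.8% and 72.2% in WH9 and WH10. *Erbb4* made up 10.1% and 7.14% in Ctrl against 15.4% and 13.5% in *miR-128*OE. The share of *Egfr* was likewise higher in both *miR-128*OE libraries (7.59% and 8.28%) than in both Ctrl libraries (6.58% and 5.67%), while that of *Erbb3* (4.19% to 6.09% over all libraries) overlapped. Shares add up to a whole, so a fall in 1 receptor raises the others.

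**Figure D2:**
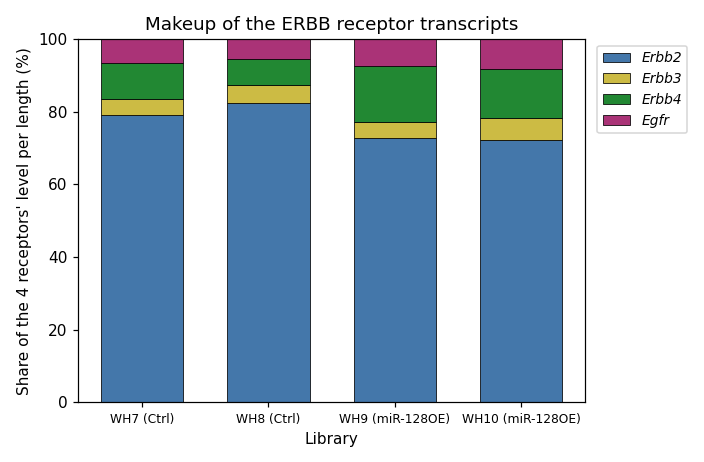
Stacked bars of the share (%) of the 4 receptors' level per kilobase of exon in each library, with Ctrl at left and miR-128OE at right. The Erbb2 share is 80.7 ± 2.33% (SD, n = 2) in Ctrl and 72.5 ± 0.443% in miR-128OE, and the Erbb4 share is 8.60 ± 2.08% and 14.4 ± 1.39%.

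The ratio of *Erbb2* to *Erbb4* counts also separated the groups, with 3.31 and 4.86 in Ctrl against 1.99 and 2.26 in *miR-128*OE, a mean log2 difference of −0.92. The ratio of *Erbb2* to *Egfr* was 5.52 and 6.68 against 4.41 and 4.01. Ratios of *Erbb2* to *Erbb3* overlapped, with 10.3 in WH10 the lowest and 14.6 to 15.8 in the other libraries. These ratios are given without a test, since 2 against 2 libraries cannot go below p = 0.333 in an exact two-sided permutation test.

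The ligands were a mixed group, with *Hbegf* well covered and the neuregulins close to the floor. None of the 4 passed the threshold in edgeR, and 1 of them, *Nrg2*, had an unadjusted p under 0.05. DESeq2 likewise called 0 of the 4. *Hbegf* (Entrez Gene 15200, chromosome 18, 36504927 to 36515805, minus strand), which encodes heparin-binding EGF-like growth factor, had 277 and 335 normalized counts in Ctrl against 300.0 and 325 in *miR-128*OE. Both *miR-128*OE libraries lay between the Ctrl libraries. The interval of its fold was 0.840 to 1.26 (log2 fold change 0.04, adjusted p = 0.840, edgeR), the narrowest of the ligands, and its sign turned with total-count scaling (−0.06), with upper-quartile scaling and without WH7 (−0.10) or WH10.

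*Nrg1* (Entrez Gene 211323, chromosome 8, 31807452 to 32891609, minus strand), the neuregulin that sustains trabeculation, was the sparsest member. It had 14 and 4 raw counts in Ctrl against 6 and 17 in *miR-128*OE, where the exact 95% Poisson interval runs from 1.09 to 10.2 for 4 counts and from 9.90 to 27.2 for 17. Each group held 1 higher and 1 lower library, and the groups overlapped. *Nrg1* was above the CPM limit of the filter in 2 of the 4 libraries, and the 95% interval of its fold was 0.417 to 2.67 (adjusted p = 0.935, edgeR), so that a 2-fold change in either direction lies inside what this depth allows. Poisson intervals cover counting error only and not the spread between samples. They take reads as independent molecules, which reads copied by PCR are not. Its log2 fold change was 0.08, but −0.02 with total-count scaling, −0.30 without WH8 and −0.69 without WH10.

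*Nrg2* (Entrez Gene 100042150, chromosome 18, 36014581 to 36197532, minus strand) encodes another neuregulin that binds ERBB3 and ERBB4. It had 32 and 14 raw counts in Ctrl against 12 and 15 in *miR-128*OE, and 29.3, 19.8, 11.9 and 12.6 normalized counts in the same order. The *miR-128*OE libraries lay below both Ctrl libraries and WH7 stood highest. With a log2 fold change of −1.03 (95% interval −1.93 to −0.12) it had the largest difference among the members and did not pass the threshold (adjusted p = 0.0797, edgeR's quasi-likelihood test). It passed with edgeR's likelihood ratio test (adjusted p = 0.0406, the lowest of 10 alternatives that reached 0.319), and its log2 fold change was −0.68 without WH7.

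*Nrg4* (Entrez Gene 83961, chromosome 9, 55220222 to 55283654, minus strand), a ligand of ERBB4 that is abundant in brown fat, had 21 and 10 raw counts in Ctrl against 27 and 27 in *miR-128*OE. Scaled, these were 19.2 and 14.1 against 26.7 and 22.7 normalized counts, with the *miR-128*OE libraries the higher pair. The log2 fold change of 0.53 had a 95% interval from −0.31 to 1.37 (adjusted p = 0.313, edgeR). Exons of *Nrg4* share 368 bases (6.06%) with *Fbxo22* on the other strand and 177 bases (2.91%) with the pseudogene *Gm15625*, and 4.66% of those of *Nrg1* are shared with *Gm26578*, so reads of these pairs cannot be told apart without strand. Of *Erbb2*, 0.173% is shared with *Mien1*. Fat cell markers stood in the same order as *Nrg4*, with summed normalized counts of 412 and 409.9 in Ctrl against 864 and 657 in *miR-128*OE. Of 5 tested markers, 3 rose in edgeR, namely *Cidea*, the highest of them, *Adipoq* and *Ucp1*, but DESeq2 did not call *Adipoq* and *Ucp1*, and total-count scaling lost *Cidea*. None of the list was at 0 in all libraries, and their part in the *Nrg4* values was not tested.

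*Errfi1* (Entrez Gene 74155, chromosome 4, 150853796 to 150868889, plus strand) encodes MIG6, an inhibitor that binds the kinase domain of active ERBB receptors and is itself induced by them and by stress. It had 309 and 367 normalized counts in WH7 and WH8 and 460.4 and 529.9 in WH9 and WH10. The lower *miR-128*OE library stood above the higher Ctrl library. Means rose from 338 ± 41.3 to 495 ± 49.1 (SD, n = 2 each), 1.47-fold or 0.56 on the log2 scale (95% interval 0.28 to 0.84, adjusted p = 0.00881, edgeR). Alternative tests, scalings and filters kept the call in 10 of 10 cases with log2 fold changes from 0.46 to 0.57. Leaving out WH10 lowered it to 0.47 and lost the call (adjusted p = 0.0862, edgeR).

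Set against its target receptor, *Errfi1* had 0.594 and 0.660 counts per *Erbb2* count in WH7 and WH8 and 1.15 and 1.43 in WH9 and WH10. Both ratios in *miR-128*OE were above both in Ctrl, a mean log2 difference of 1.03. Per *Egfr* count there were 3.28 and 4.41 *Errfi1* counts in Ctrl against 5.05 and 5.73 in *miR-128*OE, with no overlap.

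**Figure D3:**
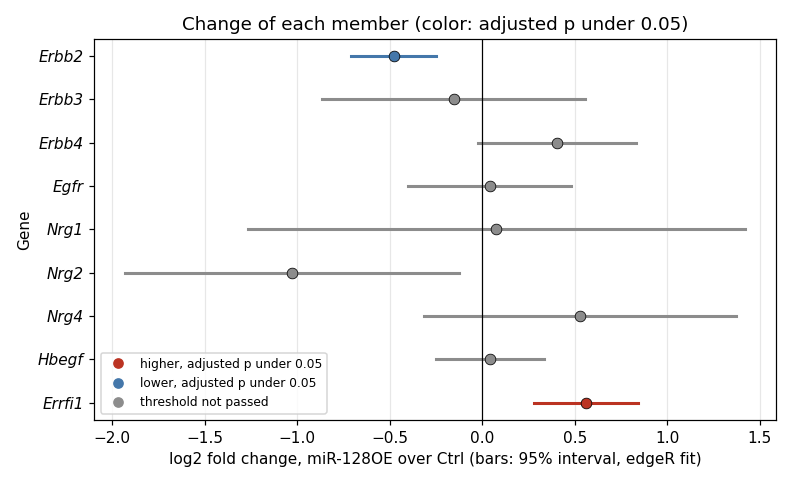
Log2 fold change of each member, miR-128OE over Ctrl, with the 95% interval of the edgeR fit as a bar. Erbb2 (−0.48) and Errfi1 (0.56) are the members whose adjusted p was under 0.05, and the bars of Nrg1 (−1.26 to 1.42) and Nrg2 (−1.93 to −0.12) are the widest.

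To compare members with each other, levels were expressed as TMM-scaled CPM per kilobase of exon. *Errfi1* (mean level 9.88, 7.33 to 12.6 over the 4 libraries) and *Erbb2* (7.54, 6.05 to 9.08) came first, and their ranges overlapped. *Hbegf* followed at 5.43 (4.87 to 5.89), close to the median of 5.32 over tested genes. With all exons as length, the order of the first pair was not the same in the groups. *Erbb2* at 8.78 ± 0.421 stood above *Errfi1* at 8.02 ± 0.979 in Ctrl. In *miR-128*OE, *Errfi1* at 11.7 ± 1.17 stood above *Erbb2* at 6.30 ± 0.358 (SD, n = 2 each). With the longest transcript as length (3043 bases for *Errfi1*, 5012 for *Erbb2*), the mean of *Errfi1* was the higher in both groups.

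A step down separated the other receptors. *Erbb4* had a level of 1.10 (0.787 to 1.39) and *Egfr* 0.677 (0.625 to 0.706), without overlap. *Nrg2* at 0.498 (0.321 to 0.792) overlapped *Egfr*, and *Erbb3* at 0.473 (0.377 to 0.539) overlapped *Nrg2*. The last in order were *Nrg4* at 0.289 (0.198 to 0.374) and *Nrg1* at 0.0794 (0.0464 to 0.117), and 0.183% of tested genes had a level below that of *Nrg1*. Levels depend on the length used. With the longest transcript in place of all exons, *Nrg4* stood at 0.839, and *Hbegf* at 9.09 stood above *Erbb2* at 7.84. Of the 9 members, 3 then kept their place in the order.

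The other ligands of the family were also sparse. Of 7, *Egf*, *Tgfa*, *Btc* and *Ereg* were tested and 0 passed the threshold in edgeR (0 also at an unadjusted p under 0.05 and in DESeq2). Their log2 fold changes were −0.05, 0.43, 0.19 and 0.27. *Nrg3* (1 count in WH7 and 0 elsewhere), *Areg* (0 to 3 counts) and *Epgn* (0 to 7 counts) were at or near the floor in at least 1 library each and were not tested.

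Sheddases release the membrane-bound ligands. Of 9 sheddases and carriers, 4 rose and 0 fell, with a median log2 fold change of 0.25. *Adam9* rose by 0.61 (adjusted p = 0.00114), *Adam15* by 0.58 (adjusted p = 0.00117) and *Adam17*, the main sheddase of HB-EGF and neuregulin, by 0.35 (adjusted p = 0.0229, all from edgeR). The call of *Adam17* was lost in DESeq2 and with total-count scaling. Of 12 genes of receptor turnover and inhibition, *Rnf41* rose by 0.44 (adjusted p = 0.0159 in edgeR, not passed in DESeq2). The list had a median of 0.18. *Rnf41* encodes NRDP1, a ubiquitin ligase that sends ERBB3 to degradation.

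Downstream of the receptors, 5 of 14 tested adaptors rose and 1 fell (median 0.19). The adaptors *Crk* and *Grb2* rose by 0.37 and 0.39 and the phosphatase *Ptpn11* by 0.32 on the log2 scale, whereas the kinase *Src* fell by 0.56 (adjusted p = 0.0158 in edgeR, not passed in DESeq2). *Grb7* (0 to 3 counts) and *Shc3* (2 to 8 counts) were not tested. Of 10 RAS-MAPK genes, 3 rose and 0 fell (median 0.10), among them the kinase *Map2k1* by 0.56. The call of *Ptpn11* was lost with total-count scaling. Of 15 PI3K-AKT genes, 5 rose and 1 fell (median 0.18). The kinases *Akt1* and *Akt2* rose by 0.51 and 0.38 and the translation repressor *Eif4ebp1* by 0.49, while *Pik3ca*, the catalytic subunit of PI3K, fell by 0.35 (adjusted p = 0.00900, edgeR). Of 7 PLC, PKC and STAT genes, *Prkca* rose by 0.62, *Stat3* rose by 0.36 and *Prkcb* fell by 0.84 (median 0.27).

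Over these 7 lists, 23 of 71 tested genes (32.4%) passed the threshold, 20 higher and 3 lower, beside 31.5% of all genes. Their median log2 fold change was 0.18. With total-count scaling, which shifts the median of all genes to −0.11, 14 were higher and 6 lower, and with DESeq2 14 were higher and 2 lower. Together with the immediate-early genes below, 32 genes passed with all libraries, 13 without WH9 and 18 without WH10.

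**Figure D4:**
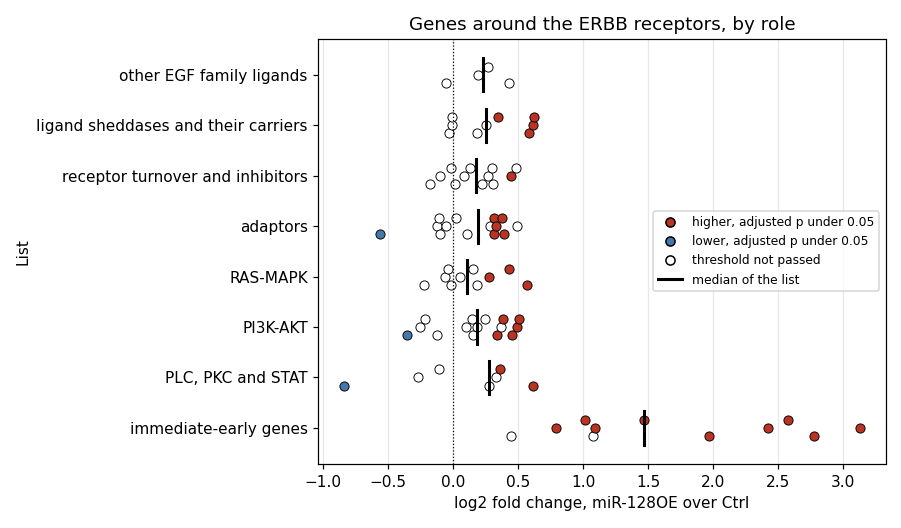
Log2 fold change (miR-128OE over Ctrl) of each tested gene in the 8 lists around the ERBB receptors, with 1 point per gene, red or blue where the adjusted p was under 0.05, and a bar at the list median. The immediate-early genes stand to the right with a median of 1.47, and the medians of the other lists lie between 0.10 and 0.27.

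Immediate-early genes, which growth factor receptors and many stresses induce within minutes, moved with *Errfi1*. Of 11, 9 rose and 0 fell, with a median log2 fold change of 1.47, and 8 or 9 rose with any 1 library left out. *Fos* rose by 3.13 (adjusted p = 1.36e-06), *Nr4a1* by 2.77 (adjusted p = 4.04e-07) and *Dusp1* by 2.42 (adjusted p = 4.85e-07, all from edgeR). Their summed normalized counts were 3357 to 3714 in Ctrl against 12549 and 12761 in *miR-128*OE, and their part in the *Errfi1* result was not tested.

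Markers of the cell types that use these receptors were read beside the members. The CM list, led by *Myh6*, had a summed level of 522978 and 562905 normalized counts in Ctrl against 629563 and 620524 in *miR-128*OE, and 3 of 8 markers rose and 2 fell. The calls in the lower direction numbered 0 with an offset for GC content and length, without WH9 and without WH10, and those in the higher direction ran from 1 without WH9 to 5 without WH8. *Erbb2* and *Erbb4*, both used by CMs, went in opposite directions by value, and *Erbb4* did not pass the threshold. The endothelial list, the source of neuregulin-1, was led by *Cdh5*, and 2 of 8 markers rose and 2 fell, against 0 and 0 without WH9. Its summed level was 22725 and 22859.5 in Ctrl against 23916 and 23039.8 in *miR-128*OE, an order that turned when libraries were scaled by total counts (2006 and 1998 CPM against 1942 and 1908 CPM). The Schwann cell and nerve list, whose cells depend on ERBB2 and ERBB3, summed to 602 and 553 in Ctrl against 445 and 475 in *miR-128*OE. Of its 7 tested markers, 1 rose and 1 fell (0 fell among autosomal genes alone), while *Sox10* (log2 fold change −0.07) did not pass the threshold. No marker of these lists was at 0 in all libraries, and the part of cell makeup in the *Erbb2* and *Erbb3* values was not tested.

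**Figure D5:**
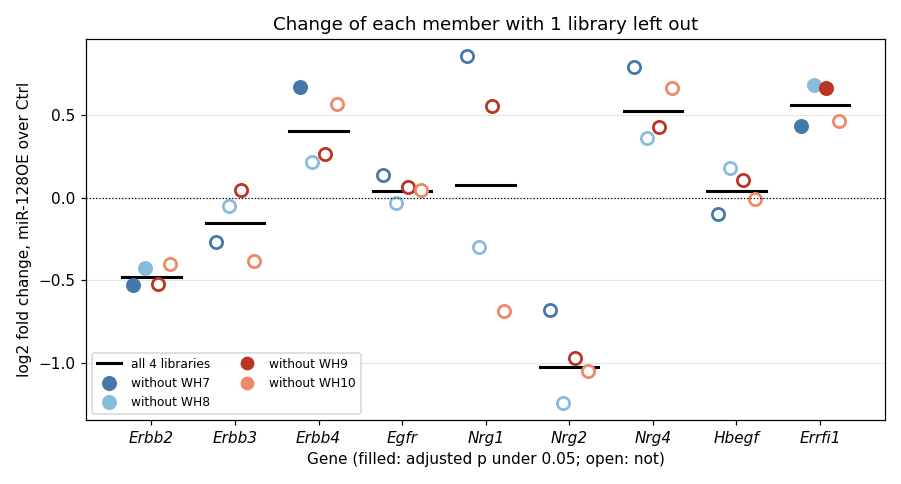
Log2 fold change of each member with all 4 libraries (black bar) and with 1 library left out (points, filled where the adjusted p was under 0.05). Erbb2 stays between −0.53 and −0.40 and Errfi1 between 0.43 and 0.69, whereas Nrg1 moves from −0.69 to 0.86.

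By likeness, the genes whose centred log2 CPM over the 4 libraries lay nearest to that of *Erbb2* among 12945 genes were *Zfp760* (Euclidean distance 0.0133), *Lyst* (0.0172) and *Acaca* (0.0260), with log2 fold changes of −0.48, −0.49 and −0.48. With 4 libraries such a distance describes a profile only.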

How the data were processed

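RNA-seq counts of P7 mouse hearts were analyzed for 2 Ctrl and 2 *miR-128*OE libraries. Hearts at other ages were not analysed here. The authors aligned reads to mm10 with TopHat2 and used Bioconductor packages to count them over known genes. They deposited raw counts per Entrez Gene identifier. The submitters' processing notes name bcl2fastq, TopHat and edgeR. The gene models and the treatment of strand and of reads with several matches are not given in the sources used here, so overlapping, antisense and near-identical genes are uncertain.

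Of 24454 identifiers, 24381 were matched to a symbol and 21341 to GENCODE M21 on GRCm38, which gave exon lengths, overlaps and 3′UTRs. Gene spans are those of RefSeq. Counts were tested with edgeR 4.0.16 in R 4.3.3 by its quasi-likelihood test, two-sided, with filterByExpr defaults (minimum count 10) and TMM factors. The study's methods name the negative binomial model of edgeR, and the test, filter and factors were chosen here. P-values were adjusted by Benjamini-Hochberg over 14266 genes, with a threshold of 0.05. Prior degrees of freedom were 7.44. Library totals were 8096870 to 14359838 counts, and the biological coefficient of variation was 8.78%. The scripts were tested on simulated data. DESeq2 1.42.0, other edgeR tests, scalings, filters, a GC and length offset (loess span 0.5), autosomal genes alone and the omission of each library were the alternatives.

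The members and lists were chosen with earlier results of these data known, so no set test was run. Named genes are all members, up to 3 genes per direction and pathway list with the smallest p-value past the threshold, the highest gene of each marker list, any marker at 0 in all libraries, and the 3 genes most like *Erbb2*. Some genes that this rule names are not reported here. *Adipoq*, *Ucp1*, *Sox10*, *Cx3cr1*, *Myh11*, *Msln*, *Wt1* and list genes with too few counts to be tested were named after their values were seen.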

Additional observations from a re-analysis of the deposited data

How the results depend on the processing

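Under 10 other tests, scalings and filters, *Erbb2* and *Errfi1* kept their direction and their side of the threshold. *Nrg2* passed with the likelihood ratio test (log2 fold change −1.03). *Egfr* and *Hbegf* turned to −0.0069 and −0.0049 with upper-quartile scaling and to −0.060 and −0.058 with total counts, where *Nrg1* turned to −0.020. Genes called lower numbered 2143 by the main test and 1403 with DESeq2. Total counts moved the share of higher calls from 52.3% to 35.3% and the median over all genes to −0.11 (log2). With each library left out in turn, an arm was left with 1 library, assumed to vary like the other group. Log2 fold changes then ran from −0.53 to −0.40 for *Erbb2*, −0.38 to 0.049 for *Erbb3*, 0.22 to 0.67 for *Erbb4*, −0.033 to 0.14 for *Egfr*, −0.69 to 0.86 for *Nrg1*, −1.24 to −0.68 for *Nrg2*, 0.36 to 0.80 for *Nrg4*, −0.10 to 0.18 for *Hbegf* and 0.43 to 0.69 for *Errfi1*. Members called numbered 0 (without WH10) to 3, all genes called 1564 (without WH9; 2285 without WH10) to 5038 (897 to 2654 higher, 667 to 2384 lower) and pathway genes called 13 (without WH9) to 37, against 32 with all libraries and 18 without WH10. With the longest transcript as length, 3 of 9 members kept their rank, and 1 member held an 8-base seed match. The cause was not tested. No paired analysis was possible because the labels give no replicate numbers shared between the groups. Counts under about 30 per library limit *Nrg1*, *Nrg2* and *Nrg4*.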

Other observations

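Other cell types that hold ERBB family members were read in the same way, by lists of markers. The fibroblast list, led by *Col3a1*, summed to 106277 and 68832 normalized counts in Ctrl against 93106 and 99879.6 in *miR-128*OE, so the groups overlapped, and 2 of 8 markers rose. Single libraries decided this count: 8 rose without WH7 and 0 without WH10, while without WH8 2 rose and 2 fell. The smooth muscle and pericyte list was led by *Acta2* and summed to 24223 and 23125 in Ctrl against 29581 and 33083 in *miR-128*OE. *Acta2* alone had 7382 and 6815 of these counts against 12481 and 14753. Past the threshold of edgeR's test, 3 of 8 markers were higher and 1 lower. DESeq2 called 3 higher and 0 lower, and total-count scaling 2 and 1. The lower marker was *Myh11*, with a log2 fold change of −0.64, and −0.28 without WH9. Of 8 macrophage markers, 1 passed the threshold in edgeR (12.5%, beside 31.5% of all genes), namely *Cx3cr1*, which fell by 1.09 on the log2 scale. The other 7 did not pass, among them *Csf1r*, the highest, with a log2 fold change of −0.25. The macrophage list summed to 1645 and 1297 in Ctrl against 1217 and 1196 in *miR-128*OE. *Cx3cr1* alone had 337 and 253 of these counts against 142 and 139. Epicardial markers were uneven between the Ctrl libraries, with 1493 normalized counts in WH7 and 669 in WH8 against 903 and 780.5 in *miR-128*OE. Of 6, 0 passed the threshold in edgeR and in DESeq2, and no call was stable. An unadjusted p under 0.05 in edgeR was reached by 2, in opposite directions, *Msln* (log2 fold change −0.90) and *Wt1* (0.32). Other tests, scalings and filters called 0 to 3 lower and 0 to 1 higher, and without WH8 4 were called lower, while without WH7 1 was called higher. No marker of these lists was at 0 in all libraries. The part of these cell types in the *Hbegf*, *Egfr* and *Nrg1* values was not tested.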
